A study of Rattus norvegicus with 10 samples.

Results

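The miR-181 family was described here by 7 mature miRNAs, found by name among the 765 rows of a table of rat hippocampal miRNAs. They are the 5p members miR-181a-5p, miR-181b-5p, miR-181c-5p and miR-181d-5p, and the 3p members miR-181a-1-3p, miR-181a-2-3p and miR-181c-3p. All 7 had a mean of at least 1 RPM (reads per 1000000 reads of the divisor used for that library) over the libraries and entered every fit, as 7 of the 474 rows kept. The libraries came from Wistar rats of 10 weeks, with 5 after the 2-VO operation (replicates 3, 5, 6, 7 and 8) and 5 after a sham operation (replicates 1 to 5). 2-VO is the bilateral common carotid arteries occlusion, a rat model of chronic cerebral hypoperfusion. The labels name no further treatment or genotype, no time after the operation, and do not say whether each library is 1 animal. The p-values below therefore rest on library-to-library spread, and part or all of it could be technical.

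A miRNA is cut from a hairpin precursor, whose 5p and 3p arms can each be loaded into an Argonaute protein and guide it to messenger RNAs that pair with the seed, bases 2 to 8. The miR-181 family is made from 6 hairpins, which lie in pairs at separate loci: mir-181a-1 with mir-181b-1, mir-181a-2 with mir-181b-2, and mir-181c with mir-181d. miR-181a is known from mouse thymocytes, where it tunes the sensitivity of the T-cell receptor, and from rat hippocampal neurons, where it represses the glutamate receptor subunit GluA2. In mouse brain, miR-181 targets the chaperone GRP78 (Hspa5) and has been studied in stroke, and miR-181c has been studied in rats after 2-VO.

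The mature sequences, from RefSeq on the build GRCr8, are shown 5′ to 3′ because they decide which reads can be told apart. Capitals mark the seed.
miR-181a-5p: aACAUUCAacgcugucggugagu
miR-181b-5p: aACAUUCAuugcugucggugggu
miR-181c-5p: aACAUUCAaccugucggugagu
miR-181d-5p: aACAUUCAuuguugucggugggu
miR-181a-1-3p: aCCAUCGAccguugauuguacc
miR-181c-3p: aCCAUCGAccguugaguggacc
miR-181a-2-3p: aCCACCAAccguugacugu

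The 5p members shared 1 seed, which no other of the 690 rows matched by name to a RefSeq sequence held. Counting positions from 1 at the 5′ end, miR-181b-5p differs from miR-181a-5p by A9U, C10U and A21G (miR-181a-5p base first), and miR-181d-5p differs from miR-181b-5p by C12U alone (miR-181b-5p base first). miR-181c-5p is 22 bases long against 23 for miR-181a-5p, and 1 edit turns one into the other. miR-181a-1-3p and miR-181c-3p share a second seed, begin with the same 15 bases and differ by G16U and G19U (miR-181c-3p base first), while miR-181a-2-3p has a seed of its own. The sources used here do not state how the authors treated reads with a mismatch or several matches, so reads of members that differ by 1 base may be split between them. The mature miR-181a-5p is the same from mir-181a-1 on chromosome 13 (chr13:52037081-52037103, plus strand) and from mir-181a-2 on chromosome 3 (chr3:43025601-43025623, plus strand), so its reads cannot be given to a locus.

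The hairpins of miR-181a-2, miR-181c and miR-181d are printed because their arms were used very differently, as shown further on. The sequences at hand held no hairpin for mir-181a-1 or mir-181b-1, so those could not be printed. Capitals mark the mature 5p and 3p arms.
Mir181a2: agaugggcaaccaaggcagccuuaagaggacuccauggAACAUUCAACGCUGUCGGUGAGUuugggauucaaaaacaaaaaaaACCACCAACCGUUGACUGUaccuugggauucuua
Mir181c: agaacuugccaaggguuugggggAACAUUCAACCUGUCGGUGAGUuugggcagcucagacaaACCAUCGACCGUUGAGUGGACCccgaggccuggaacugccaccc
Mir181d: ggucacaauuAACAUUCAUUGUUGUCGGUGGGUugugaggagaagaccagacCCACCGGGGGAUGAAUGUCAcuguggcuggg
Mir181c (chr19:40888291-40888396) and Mir181d (chr19:40888474-40888556) lie on the plus strand of chromosome 19.

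Every value above 0 in the table was a whole number of reads at 1 divisor per library of 13032805 to 13850400 reads, and the smallest listed value stood for 10 reads. The lowest member, miR-181a-2-3p, rested on 133 to 223 reads per library, and miR-181a-5p on 38636 to 61917. The listed miRNAs made up 60.3% to 78.0% of the divisor, with the lowest share in 2-VO replicate 3. That library also stood apart in the markers of epithelium and sensory cells, at 82.8 RPM summed over 8 rows of which 1 was at 0 throughout, against 10.3 to 29.6 RPM in the other 9 libraries. It had the lowest sum of red blood cell markers, 84.9 RPM against 131 to 219.7 RPM in the others, and of neuronal markers, 177258 RPM against 187555 to 229760 RPM. The comparisons below were repeated without it. Neuronal markers summed to 177258 to 229760 RPM in 2-VO and 187555 to 226879 RPM in sham libraries. Leukocyte markers, another possible source of miR-181a, summed to 233 to 297 RPM in 2-VO and 243 to 286 RPM in sham libraries. Endothelial markers summed to 5769 to 8326 RPM in 2-VO and 6555 to 7731 RPM in sham libraries. The groups came nearest to separating in choroid plexus markers, at 387 to 562 RPM in 2-VO and 548 to 949 RPM in sham libraries, and their part in the results was not tested.

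The family was led by miR-181a-5p and spanned more than 2 orders of magnitude in level. miR-181a-5p was at 4514, 3468, 4011, 2903 and 3495 RPM in 2-VO replicates 3, 5, 6, 7 and 8, and at 2833, 4123, 3950.4, 4083 and 4467 RPM in sham replicates 1 to 5. The highest value thus belonged to 2-VO replicate 3 and the lowest to sham replicate 1, and the groups overlapped. miR-181b-5p was at 1226, 966, 1121, 847 and 918 RPM in the 2-VO libraries, against 715, 1029, 1084, 1097 and 1201 RPM in the sham libraries, in the same replicate order. Its extremes fell in the same libraries as those of miR-181a-5p. miR-181d-5p was at 188, 232, 235, 223 and 245 RPM in 2-VO and at 184, 244, 251, 214 and 266 RPM in sham libraries. It was low in 2-VO replicate 3, where miR-181a-5p and miR-181b-5p were highest, and low with them in sham replicate 1.

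miR-181c-5p, the rarest 5p member, was at 15.7, 20.5, 16.8, 14.5 and 24.0 RPM in 2-VO and at 18.0, 18.2, 19.1, 18.3 and 16.3 RPM in sham libraries. The 2-VO values reached both above and below all sham values: their coefficient of variation was 21.2% in 2-VO against 5.66% in sham libraries, where counting error alone gives 6.38% in 2-VO and 6.44% in sham. No test was made of that difference in spread. Its opposite arm miR-181c-3p was more abundant, at 40.0, 53.6, 47.0, 44.8 and 56.9 RPM in 2-VO and 42.7, 48.9, 52.7, 47.1 and 43.2 RPM in sham libraries. As for miR-181c-5p, 2-VO replicates 8 and 5 were highest. Of the 3p arms of miR-181a, miR-181a-1-3p was at 396, 394, 428, 336 and 403 RPM in 2-VO and 317, 354, 401, 409.6 and 367 RPM in sham libraries. miR-181a-2-3p was at 13.1, 12.3, 15.3, 9.99 and 16.1 RPM in 2-VO and 11.8, 12.7, 16.8, 16.1 and 12.0 RPM in sham libraries. Both were low in 2-VO replicate 7 and sham replicate 1 and overlapped between the groups.

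**Figure D1:**
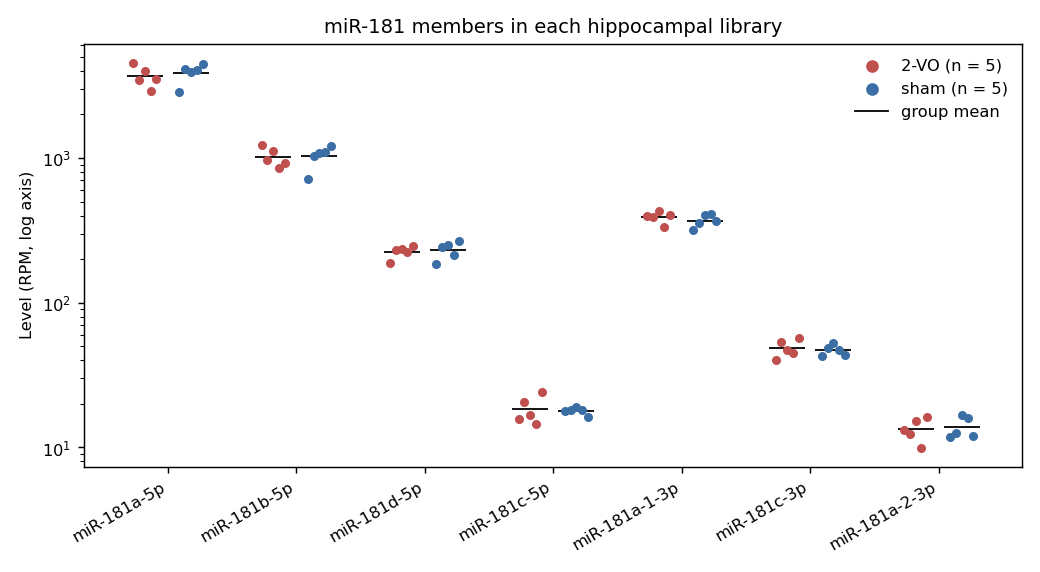
RPM of the 7 miR-181 members on a log axis, with a point per library (2-VO left, sham right) and a line at each group mean. The members lie at separate levels, except miR-181c-5p and miR-181a-2-3p, whose ranges overlap, and run from miR-181a-5p at 2833 to 4514 RPM down to miR-181a-2-3p at 9.99 to 16.8 RPM, and the groups overlap for each of them.

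By mean RPM over the 10 libraries the order was miR-181a-5p (rank 33 of the table), miR-181b-5p (71), miR-181a-1-3p (111), miR-181d-5p (146), miR-181c-3p (233), miR-181c-5p (299) and miR-181a-2-3p (321). RPM is not corrected for the preference of adapters for some small RNAs, so levels of different miRNAs compare reads and not molecules. The ranges of neighbours in this order did not overlap, except those of miR-181c-5p and miR-181a-2-3p, which lay 1.33-fold apart in mean. Even there miR-181c-5p was the higher one in 10 of 10 libraries, by 1.10 to 1.66-fold. The narrowest of the other steps was from miR-181a-1-3p to miR-181d-5p, at 1.38 to 2.11-fold per library. Summed over rows with the same seed, the 5p members reached 5052 RPM, rank 20 among the 402 seeds with a value above 0 in the 690 rows matched to a sequence, which held 91.6% of the listed RPM.

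The shares of miR-181a-5p and miR-181b-5p in the summed reads of the family changed little between libraries. miR-181a-5p held 68.1% ± 1.60 in 2-VO and 69.5% ± 0.953 in sham libraries (SD, n = 5 each), and miR-181b-5p 18.8% ± 0.619 and 18.3% ± 0.702. miR-181a-1-3p held 7.33% ± 0.666 in 2-VO and 6.68% ± 0.774 in sham libraries, and miR-181d-5p 4.26% ± 0.836 and 4.16% ± 0.322. The remaining members, miR-181c-3p, miR-181c-5p and miR-181a-2-3p, each held at most 1.10% in any library. Over the table the family took 0.786% ± 0.156 of the listed RPM in 2-VO and 0.778% ± 0.111 in sham libraries. Without 2-VO replicate 3 the 2-VO mean was 0.717% ± 0.0346 (SD, n = 4).

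The comparison of 2-VO with sham asks whether members of the family differ in hippocampus after carotid occlusion. None of the 7 members passed the threshold of an adjusted p of 0.05, as for 0% of the 474 rows (limma's moderated test on log2(RPM + 1), Benjamini-Hochberg adjustment). None had an unadjusted p under 0.05 either, a level reached by 24 rows or 5.06% with limma, by 25 rows or 5.27% with limma's voom on whole reads, and by 32 rows or 6.75% with an exact permutation test. For none of the 7 were the groups free of overlap, against 3 or 0.633% of the 474 rows. The log2 fold changes of the members ran from -0.080 to 0.084 with a median of -0.0049, 3 above and 4 below 0, against a median of -0.051 over all 474 rows, of which 62.2% were below 0. The sizes of the changes, without sign, had a median of 0.040 for the members and 0.10 for all rows.

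miR-181a-5p averaged 3678 ± 610.1 RPM in 2-VO and 3891.5 ± 622 RPM in sham libraries (SD, n = 5 each). Its log2 fold change was -0.080 ± 0.14 (SE; limma adjusted p = 0.96), with a 95% interval of the fold from 0.771 to 1.16. miR-181b-5p averaged 1016 ± 155 RPM in 2-VO and 1025 ± 184 RPM in sham libraries, with an interval from 0.806 to 1.23-fold. For miR-181c-5p, the member studied before in this model, the means were 18.3 ± 3.88 RPM in 2-VO and 18.0 ± 1.02 RPM in sham libraries, and the interval ran from 0.819 to 1.22-fold (log2 fold change 0.0024 ± 0.14, limma adjusted p = 0.996). miR-181d-5p averaged 225 ± 22.1 RPM in 2-VO and 232 ± 32.6 RPM in sham libraries, with an interval from 0.815 to 1.16-fold. These intervals bound the difference between the groups and do not show that the levels are alike.

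Among the 3p arms, miR-181a-1-3p had the smallest p of the family, with 391 ± 33.8 RPM in 2-VO and 369.7 ± 37.3 RPM in sham libraries (SD, n = 5 each). Its log2 fold change was 0.084 ± 0.10 (SE; limma adjusted p = 0.93), its fold interval 0.909 to 1.24, and 4 of 5 2-VO libraries lay above the sham median. It was also the single member whose sign held when any 1 library was left out. miR-181c-3p averaged 48.5 ± 6.82 RPM in 2-VO and 47.0 ± 4.16 RPM in sham libraries (fold interval 0.862 to 1.22). miR-181a-2-3p averaged 13.4 ± 2.44 RPM in 2-VO and 13.9 ± 2.36 RPM in sham libraries (0.773 to 1.20-fold). In bulk tissue, fewer cells of a type and less RNA per cell cannot be told apart.

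**Figure D2:**
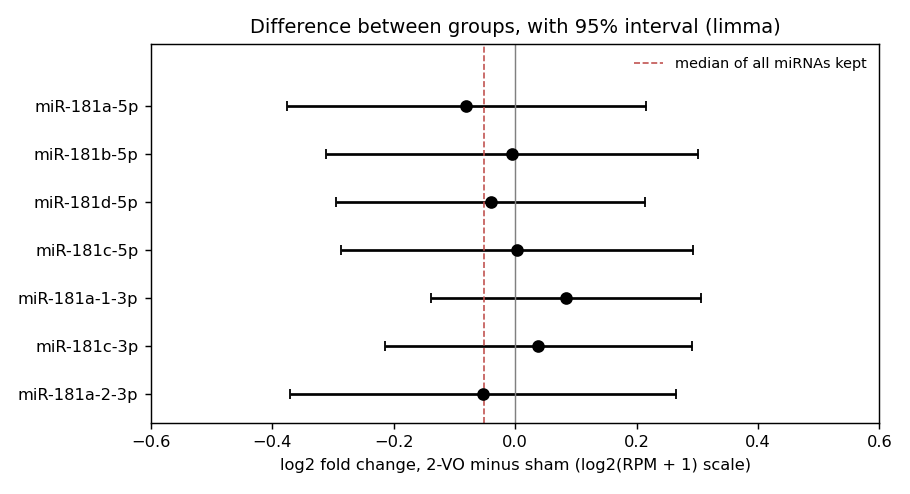
Log2 fold change (2-VO minus sham, log2(RPM + 1) scale) of each member, as points with the 95% interval from limma. The 7 intervals all include 0 and the dashed line at -0.051, the median of all 474 miRNAs kept.

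Ratios between members do not depend on the divisor behind the RPM values, and 5 of them were compared. The steadiest was miR-181b-5p to miR-181a-5p: per library, miR-181b-5p reads were 27.2%, 27.8%, 28.0%, 29.2% and 26.3% of miR-181a-5p reads in 2-VO and 25.2%, 25.0%, 27.4%, 26.9% and 26.9% in sham libraries. The ratio thus stayed within 25.0% to 29.2% while each member varied by over 1.5-fold between libraries. It averaged 27.7% ± 1.08 in 2-VO and 26.3% ± 1.11 in sham libraries (SD, n = 5 each), a difference of 0.076 ± 0.037 on the log2 scale that did not pass (SE; exact two-sided permutation test, p = 0.095, adjusted over the 5 ratios p = 0.46). The difference had the same sign when any 1 library was left out.

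The cluster partners miR-181c-5p and miR-181d-5p, by contrast, stood in a changing ratio. miR-181d-5p was 11.9, 11.3, 14.0, 15.4 and 10.2-fold above miR-181c-5p in 2-VO and 10.3, 13.4, 13.1, 11.7 and 16.3-fold above it in sham libraries. The group means were 12.6 ± 2.08 in 2-VO and 12.9 ± 2.24 in sham libraries (exact permutation test, p = 0.82, adjusted p = 0.84). miR-181d-5p to miR-181a-5p ran from 4.16% in 2-VO replicate 3 to 7.67% in 2-VO replicate 7, and averaged 6.28% ± 1.35 in 2-VO and 5.99% ± 0.495 in sham libraries (exact permutation test, p = 0.84, adjusted p = 0.84). miR-181c-5p to miR-181a-5p averaged 0.509% ± 0.134 in 2-VO and 0.475% ± 0.0991 in sham libraries (exact permutation test, p = 0.71, adjusted p = 0.84). The 3p arm of the second miR-181a hairpin was 3.39% ± 0.402 of that of the first in 2-VO and 3.74% ± 0.341 in sham libraries (exact permutation test, p = 0.18, adjusted p = 0.46).

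**Figure D3:**
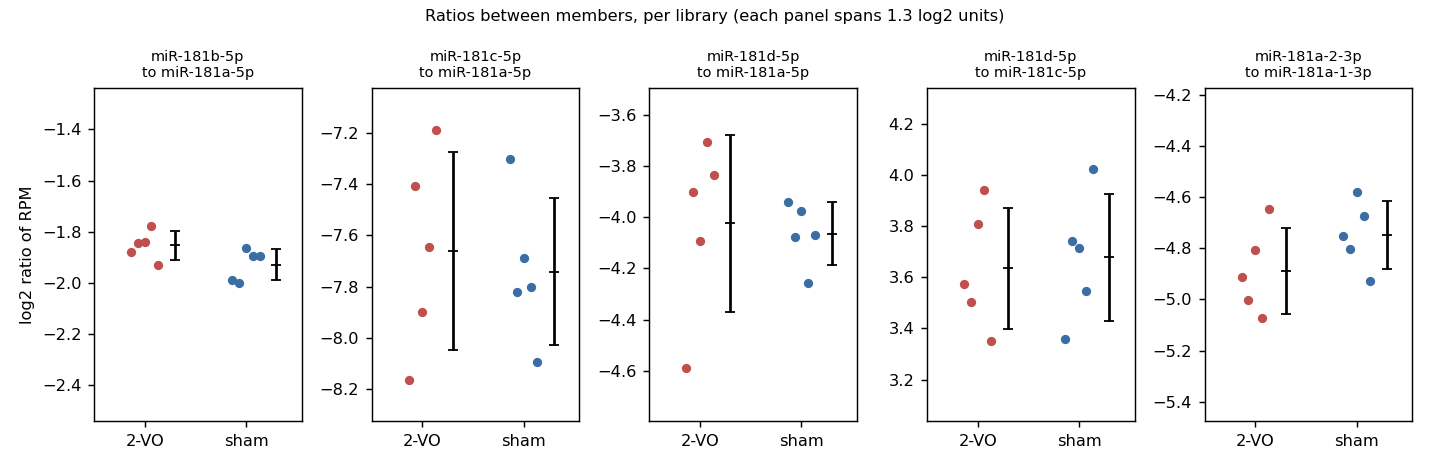
Log2 ratios of RPM between members, a point per library with the mean and SD beside it (n = 5 each, 2-VO left, sham right), in panels that each span the same range. The ratio of miR-181b-5p to miR-181a-5p is the tightest, with an SD over the 10 libraries of 0.068, against 0.23 to 0.32 for the ratios that involve miR-181c-5p or miR-181d-5p.

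Across the 10 libraries the members did not move as a single block. All 21 pairs were compared by the correlation of log2(RPM + 1), with permutation tests of 100000 resamples and adjustment over the 21 pairs. The libraries are taken as independent here, which the labels do not state, and they share both groups. Of the 21 Pearson coefficients 17 were above 0, and 2 passed. miR-181a-5p and miR-181b-5p had r = 0.96 (permutation p = 4e-05, adjusted p = 0.00084) and Spearman's rho = 0.90 (p = 0.00077, adjusted p = 0.016). Without sham replicate 1 and 2-VO replicate 7, which were farthest from the median, r was 0.93 (exact test, adjusted p = 0.014). Scaled to the listed miRNAs it was 0.96, and centred on the group means 0.97.

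The other pair that passed were the arms of the mir-181c hairpin, miR-181c-5p and miR-181c-3p, with r = 0.84 (permutation p = 0.0025, adjusted p = 0.026) and rho = 0.87 (p = 0.0024, adjusted p = 0.025). Without 2-VO replicates 8 and 7, r was 0.87 (exact test, adjusted p = 0.022). Scaled to the listed miRNAs, r was 0.80 and did not pass (permutation adjusted p = 0.067). The 3p arms of miR-181a, from hairpins on different chromosomes, had r = 0.79 (permutation p = 0.0080, adjusted p = 0.056) and rho = 0.83 (p = 0.0047, adjusted p = 0.033), and r = 0.88 centred on the group means (adjusted p = 0.0043). Without sham replicate 1 and 2-VO replicate 7 their r was 0.69 (exact test, adjusted p = 0.17), and scaled to the listed miRNAs 0.67 (permutation adjusted p = 0.18). The permutation test of centred values ignores that group means were removed, so its adjusted p of 0.0043 may be too small.

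miR-181c-5p and miR-181d-5p, neighbours on chromosome 19, had r = 0.28 (permutation p = 0.44, adjusted p = 0.57) and rho = 0.30 (p = 0.41, adjusted p = 0.54), and r = -0.13 scaled to the listed miRNAs. Without 2-VO replicates 8 and 7, r was 0.20 (exact test, adjusted p = 0.88). With miR-181c-3p, the more abundant arm, miR-181d-5p had r = 0.57 (permutation p = 0.084, adjusted p = 0.25) and rho = 0.50. Scaled to the listed miRNAs, that r was 0.21. miR-181a-5p and miR-181c-5p, which are 1 edit apart, had r = -0.073 (permutation p = 0.84, adjusted p = 0.84) and rho = -0.25 (p = 0.49, adjusted p = 0.54). Without sham replicate 1 and 2-VO replicate 7, the libraries with the lowest miR-181a-5p, their r was -0.90 (exact test, adjusted p = 0.011), so the pooled value rests on those libraries. The same held for miR-181a-5p with miR-181c-3p, at r = -0.12 over 10 libraries and -0.92 over 8 (exact test, adjusted p = 0.012), and for miR-181b-5p with miR-181c-5p, at -0.18 and -0.94 (exact test, adjusted p = 0.0052), and with miR-181c-3p, at -0.12 and -0.93 (exact test, adjusted p = 0.011). The 8 libraries kept 2-VO replicate 3. Without that library alone, r was 0.067 for miR-181a-5p with miR-181c-5p and 0.13 with miR-181c-3p. For miR-181b-5p the same arms gave -0.055 and 0.13, so these coefficients depend on which libraries are kept. miR-181a-5p and miR-181d-5p had r = 0.32 (permutation p = 0.36, adjusted p = 0.54) and rho = 0.26 (p = 0.47, adjusted p = 0.54). Without sham replicate 1 and 2-VO replicate 7 their r was -0.25 (exact test, adjusted p = 0.87), while without 2-VO replicate 3 alone it was 0.71.

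**Figure D4:**
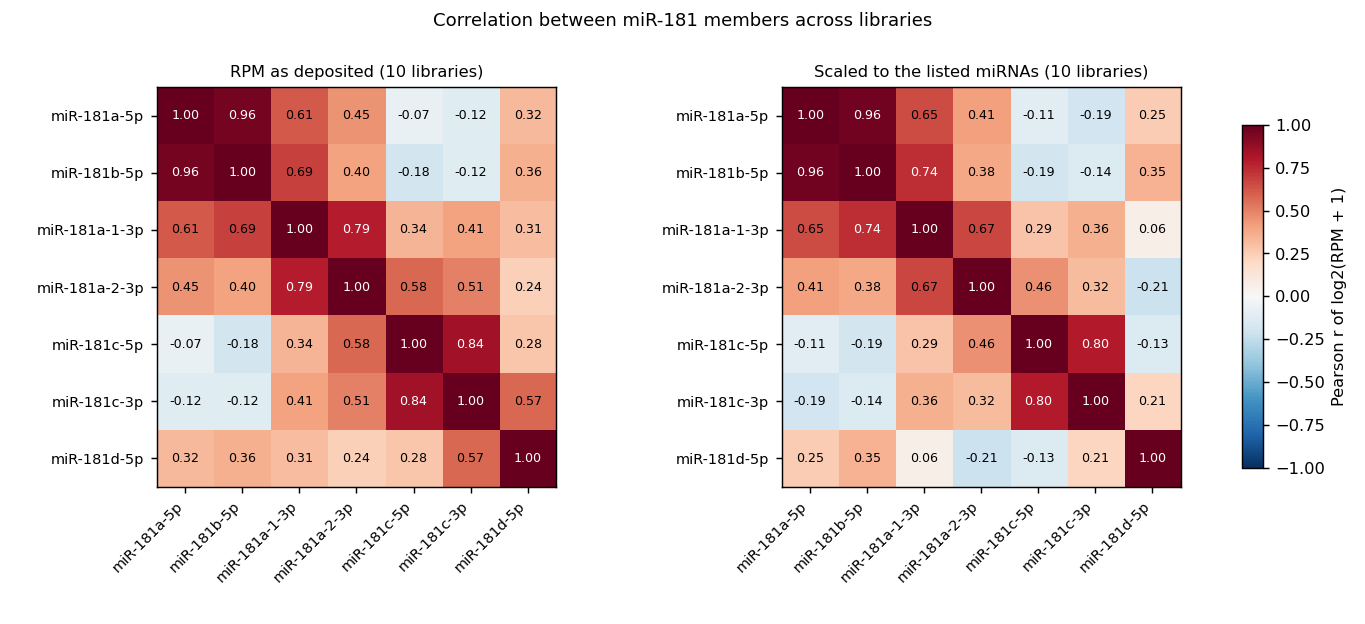
Pearson correlation of log2(RPM + 1) for each pair of members across the 10 libraries, from RPM as deposited (left) and scaled to the listed miRNAs (right), with red above 0 and blue below. miR-181a-5p with miR-181b-5p stands at 0.96 on both sides, miR-181c-5p with miR-181c-3p at 0.84 and 0.80, and miR-181c-5p with miR-181d-5p at 0.28 and -0.13.

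Among 338 other miRNAs of at least 10 RPM, ranked by correlation of values centred on the group means miR-181b-5p was the closest to miR-181a-5p (r = 0.97) and the reverse held as well. The closest miRNAs outside the family, passing over miR-3570 because it repeats miR-181a-1-3p, were miR-338-5p (r = 0.95), miR-450a-5p (0.92) and miR-450b-5p (0.92) for miR-181a-5p, and miR-338-5p (0.96), miR-21-5p (0.93) and miR-338-3p (0.90) for miR-181b-5p. These values describe 10 libraries that share a divisor, were picked as the highest of many, and carry no test. miR-338 is enriched in oligodendrocytes, the myelin-forming cells, and the oligodendrocyte markers as a list (4 of 4 in the table) are given beside these members. They summed to 3442, 2409, 2954, 2136 and 1975 RPM in 2-VO and 2182, 2579.7, 2829, 3262.5 and 3195 RPM in sham libraries. The highest sum was in 2-VO replicate 3 and the lowest of the sham sums in sham replicate 1, as for miR-181a-5p and miR-181b-5p, but the lowest sum of all was in 2-VO replicate 8. miR-338-5p and miR-338-3p are themselves on that list. The part of oligodendrocyte RNA in the spread of these members was not tested.

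The members of the mir-181c/d cluster had other neighbours. In the same ranking of 338 miRNAs, miR-181c-3p stood at rank 11 for miR-181c-5p, and miR-181c-5p at rank 29 for miR-181c-3p. The arms of mir-181c were thus not each other's closest rows. The closest to miR-181c-5p were miR-411-5p (r = 0.94), miR-674-5p (0.90) and miR-330-5p (0.89), and to miR-181c-3p miR-324-3p (0.98), miR-341 (0.95) and miR-127-5p (0.92). For miR-181d-5p they were miR-103-3p (0.95), miR-191a-5p (0.90) and miR-29a-3p (0.90), and scaled to the listed miRNAs these 3 coefficients were 0.86, 0.74 and 0.77. miR-181a-1-3p was closest to miR-322-3p (0.94), miR-106b-3p (0.94) and miR-3559-3p (0.93), and miR-181a-2-3p to miR-3559-3p (0.94), miR-106b-3p (0.91) and miR-3596d (0.89). Both 3p arms of miR-181a thus shared miR-3559-3p and miR-106b-3p among their closest rows. Scaled likewise, the 3 coefficients in the same order were 0.90, 0.87 and 0.88 for miR-181c-5p and 0.96, 0.83 and 0.84 for miR-181c-3p. They were 0.91, 0.92 and 0.84 for miR-181a-1-3p and 0.93, 0.86 and 0.87 for miR-181a-2-3p. For miR-181a-5p they were 0.97, 0.94 and 0.94, and for miR-181b-5p 0.97, 0.93 and 0.90.

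The arms of the hairpins were used unequally and in opposite directions within the family. For mir-181c the 3p arm led, with 2.37 to 3.09-fold more reads than the 5p arm in each library, and miR-181c-5p took 28.3%, 27.6%, 26.3%, 24.4% and 29.6% of the reads of both arms in 2-VO and 29.6%, 27.2%, 26.6%, 27.9% and 27.4% in sham libraries. For miR-181a the 5p arm led, by 8.64 to 12.2-fold over miR-181a-1-3p and by 217 to 371-fold over miR-181a-2-3p, though the same miR-181a-5p reads stand in both ratios. miR-181b-5p stood 63.0 to 111-fold above miR-181b-1-3p, a row outside the 7 members at 11.4 ± 1.81 RPM in 2-VO and 12.3 ± 3.14 RPM in sham libraries (SD, n = 5 each). The Mir181b2 hairpin on chromosome 3 holds the same miR-181b-5p sequence as mir-181b-1, so this ratio, too, sets 5p reads of both loci against the 3p arm of one. miR-181b-2-3p and miR-181d-3p were listed at 0 in all 10 libraries, where 0 stands for fewer than 10 reads, or under 0.722 to 0.767 RPM by library. The printed Mir181d hairpin holds the sequence of miR-181d-3p in capitals as its second arm.

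Arm use was set against the operation in 159 hairpins with both arms kept, as the log2 ratio of 5p over 3p reads, and 67 of them, or 42.1%, had more 3p than 5p reads, like mir-181c. None of the 4 miR-181 hairpins passed, as for 0% of the 159 (limma, smallest adjusted p = 0.20), and none had an unadjusted p under 0.05, against 16 or 10.1% of the 159. The log2 ratio for miR-181a-1 was 3.22 ± 0.170 in 2-VO and 3.38 ± 0.184 in sham libraries (SD, n = 5 each), a difference of -0.16 ± 0.10 (SE; limma adjusted p = 0.58). For miR-181c the log2 ratio was -1.37 ± 0.135 in 2-VO and -1.33 ± 0.0802 in sham libraries, a difference of -0.036 ± 0.11 (limma adjusted p = 0.93, interval -0.27 to 0.20). The differences for miR-181a-2 and miR-181b-1 were -0.028 ± 0.14 and 0.086 ± 0.13 (limma adjusted p = 0.95 and 0.81). The arm ratio of miR-181c varied little between libraries, with an SD of 0.11 over the 10 libraries, where counting error gives 0.11. Of 98 hairpins with at least 10 RPM on both arms, whose median SD was 0.18, 8 had a smaller one.

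**Figure D5:**
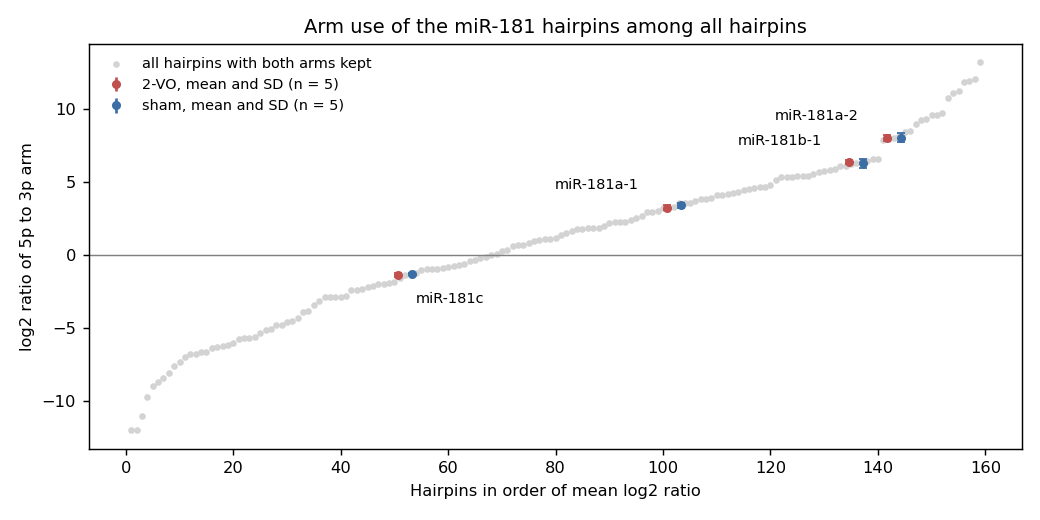
Log2 ratio of 5p to 3p arm for 159 hairpins in order of their mean (grey points), with the mean and SD of the 4 miR-181 hairpins in 2-VO (red, left) and sham (blue, right) libraries. miR-181c lies below 0, where the 3p arm leads, and miR-181a-1, miR-181b-1 and miR-181a-2 lie above 0, at 3.22 to 8.03.

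The reads of miR-181a-1-3p stood in the table a second time, under the name miR-3570, which is not a member. The counts under both names were equal in 8 libraries and differed by 1 read in the other 2. RefSeq places both at chr13:52037121-52037142, miR-181a-1-3p on the plus strand and miR-3570 on the minus strand, and the sequence of one is the exact reverse complement of the other.
miR-181a-1-3p: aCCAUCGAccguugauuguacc
miR-3570: gguacaaucaacggucgauggu
The sources used here do not state whether the authors counted by strand, so these reads cannot be told apart between the names, and the values of miR-181a-1-3p above carry that limit.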

How the data were processed

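Small RNA from hippocampus was sequenced in 10 libraries, with adapters ligated and products size-selected on a gel, per the labels' protocols. The deposited table gives RPM per mature miRNA, per its name as deposited by the authors; per the submitters' processing notes, the tools named are bcl2fastq and BWA and the build is rn6. No unique identifiers are named, so PCR copies count as reads, and counting error is a lower bound. Of the values above 0, 4962 of 4962 were whole reads within 0.01 at a divisor found per library. Chi-square between libraries of a group, over its degrees of freedom, was at least 95.2, and all 10 were counted as separate.

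Rows with a mean of at least 1 RPM (474) were compared as log2(RPM + 1), which understates changes of low rows, with limma 3.58.1 in R 4.3.3 (mean-variance trend, two-sided). For arm ratios the trend was over the mean level of both arms. Ratios of members were tested by exact permutation over 252 assignments (smallest possible p 0.0079). The code was tested on simulated data. The 7 members, lists and tests were chosen with earlier results of these data known. Named rows outside the family are those that share its name or sequence, the 3 closest by correlation to each member, and marker lists. The planned count test was not run, since no value under 10 reads is listed; voom stands in. Sequences were matched to RefSeq by name.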

Additional observations from a re-analysis of the deposited data

Results flagged for a closer look

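Of 48 groups of 5 values (levels, shares and ratios of members), 1 held a library whose gap to its nearest neighbour was above 0.71 of the range, where chance gives about 2.4. The family took 1.06% of the listed RPM in 2-VO replicate 3, against 0.682% to 0.753% in the other 2-VO libraries. That library also had the smallest share of listed miRNAs in its divisor, 60.3%, and the highest sum of oligodendrocyte markers, 3442 RPM. The part of either in this value was not tested.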

How the results depend on the processing

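No alternative brought a member past the threshold. Over the 7 log2 fold changes the 147 alternative limma fits had a smallest adjusted p of 0.65, and the 7 exact permutation tests a smallest unadjusted p of 0.37. Of the 147 fits 27 turned a sign. Against RPM as deposited, the log2 fold change of miR-181b-5p was 0.053 scaled to the listed miRNAs, 0.060 with TMM factors and 0.050 with median-of-ratios factors. Under the same 3 scalings miR-181d-5p was at 0.018, 0.024 and 0.015, and miR-181a-2-3p was at 0.00047 and 0.0066 under the first 2. Leaving out 1 library turned the sign of 6 of the 7 members. The ranges were -0.19 to 0.0010 for miR-181a-5p, -0.13 to 0.058 for miR-181b-5p, -0.096 to 0.076 for miR-181c-5p, -0.12 to 0.023 for miR-181d-5p, -0.022 to 0.10 for miR-181c-3p, and -0.12 to 0.039 for miR-181a-2-3p. For miR-181a-1-3p the range was 0.030 to 0.14. For arm ratios it was -0.11 to 0.070 for miR-181a-2, -0.0091 to 0.18 for miR-181b-1 and -0.075 to 0.013 for miR-181c. The arm ratio of miR-181a-1 kept its sign, at -0.24 to -0.11. For member ratios the range was -0.036 to 0.21 for miR-181c-5p to miR-181a-5p, -0.040 to 0.18 for miR-181d-5p to miR-181a-5p and -0.12 to 0.045 for miR-181d-5p to miR-181c-5p. The sign held for miR-181a-2-3p to miR-181a-1-3p, at -0.20 to -0.095, and for miR-181b-5p to miR-181a-5p, at 0.056 to 0.094. The count of hairpins that passed ran from 0 to 4, with 1 without 2-VO replicate 3 and 4 without sham replicate 5, none of them miR-181. The count of rows at an unadjusted p under 0.05, 24 over all libraries, was 12 to 42 with 1 library left out and 37 with TMM or median-of-ratios factors.

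The replicate numbers 3 and 5 occur in both groups, and deviations of same-numbered libraries correlated at -0.058 and -0.18 over 474 miRNAs. Coefficients of 2 pairs cannot show whether same-numbered libraries have more than the number in common. With the replicate number as a block, the group difference rests on those 2 pairs alone, and 8 rows passed against 0, no member among them. The block gave -0.043 ± 0.31 for miR-181c-3p (SE, here and below), and 0.066 ± 0.27 and 0.065 ± 0.16 for the arm ratios of miR-181a-2 and miR-181c. For miR-181d-5p to miR-181a-5p it gave -0.22 ± 0.34. All of these had the opposite sign to the estimate without the block. The block also moved miR-181d-5p to -0.31 ± 0.32, the ratio of miR-181d-5p to miR-181c-5p to -0.33 ± 0.33 and miR-181a-2-3p to -0.15 ± 0.31. Of the 21 correlations 2 passed, 1 scaled to the listed miRNAs, 3 centred on the groups (where p may be too small) and 6 without the 2 farthest libraries. That last setting also gave r = -0.31 for miR-181a-5p with miR-181a-1-3p, -0.29 with miR-181a-2-3p and -0.25 with miR-181d-5p. Over all 10 libraries these were 0.61, 0.45 and 0.32 (permutation adjusted p = 0.25, 0.46 and 0.54). Scaling gave -0.13 for miR-181c-5p with miR-181d-5p, against 0.28 as deposited. The cause of these changes was not tested. The quasi-likelihood count test planned as an alternative was not run.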

Other observations

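Among the rows with a mean of at least 1 RPM were 10 families in which a shared 5p row comes from hairpins with a pair of numbered 3p rows. miR-181b was not among them, since miR-181b-2-3p was listed at 0. The 3p rows of miR-181a differed 28.0-fold in mean RPM, with miR-181a-1-3p the higher. That was rank 3 of these 10 families, after miR-219a and let-7a, and followed by let-7c at 20.1-fold and miR-30c at 9.08-fold. The fold between the 3p rows was smallest for miR-7a, at 1.25-fold. The let-7a-1-3p and let-7c-2-3p rows repeat each other, so these families are not independent.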
